A study of Mus musculus with 6 samples.

Results

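The genes described here are 10 repressors and output activators of the circadian clock, measured in mouse gastrocnemius, the main calf muscle. They were chosen by symbol from the deposited table: the Period genes Per1, Per2 and Per3, the cryptochromes Cry1 and Cry2, the PAR bZIP activators Dbp, Tef and Hlf, and the repressors Ciart and Bhlhe41. All 10 were found among 46504 features, and all 10 passed the filter on low counts that left 15448 features for testing. PolyA RNA was sequenced from 3 control and 3 restraint libraries of wild type mice, both groups labelled day 4. For restraint, each mouse was confined in a 50 mL tube, with sessions of 3 h once per 4 days, and both groups lived under a regular light/dark cycle with free access to food and water. Strain, age, sex, the time of day of tissue collection and the interval between the last restraint and collection are not given in the sources used here. A difference in a clock gene between the groups and a difference in collection time therefore cannot be told apart. No label says that each library came from a separate mouse, so the p-values measure only library-to-library spread, which may be technical.

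In the mammalian clock, CLOCK and BMAL1 (gene symbol Arntl) bind E-box elements and switch on the Period and cryptochrome genes, whose proteins return to the nucleus and block CLOCK and BMAL1. The same activators drive Dbp, Tef and Hlf, which encode proline- and acid-rich basic leucine zipper factors that bind D-box elements, where NFIL3 acts as the opposing repressor. CIART, also called CHRONO, and BHLHE41, also called DEC2, repress E-box genes. In skeletal muscle this clock is known to run in the fibres themselves, and it can be set by light, feeding, activity and glucocorticoids.

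Some promoter windows of these genes show the elements that the names E-box and D-box refer to. RefSeq windows on GRCm38.p6, reaching from 250 bases before to 50 bases after an annotated start, were given for 9 of the 10 members, with 11 windows in all; Per2 had none. The E-box letters CACGTG, which read the same on both strands, were in 6 of the 11 windows, from Per1, Cry1, Tef (both windows), Ciart and Bhlhe41. Of all 32851 windows 7.15% held them. The D-box letters TTATGTAA or TTACGTAA, on either strand, were in the Per3 window, at 2 places, and in 1.06% of all windows. The cyclic AMP response element TGACGTCA was in the Hlf window and in 1.79% of all windows. The ROR element, the full glucocorticoid element and the heat shock element, searched on both strands, were in none of the 11 windows and in 0.219%, 0.00913% and 0.603% of all windows. The windows of Cry2 and Dbp and the second window of Per1 held none of the searched motifs. No motif overlapped another. The stretches around the motifs are printed 5′ to 3′ on the gene's strand, with the motif in capitals. Those with an E-box or a D-box hold letters through which the clock's own factors are known to bind. Of the searched motifs, the Hlf stretch holds only the cyclic AMP response element.

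Ciart (chr3:95882240-95882371, minus strand, E-boxes beginning 116, 58 and 44 bases before the start): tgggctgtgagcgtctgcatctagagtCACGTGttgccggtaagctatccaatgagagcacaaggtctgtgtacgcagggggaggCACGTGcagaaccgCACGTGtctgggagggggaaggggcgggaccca
Bhlhe41 (chr6:145865541-145865600, minus strand, E-box 153 bases before the start): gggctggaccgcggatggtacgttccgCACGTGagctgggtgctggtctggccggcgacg
Per1 (chr11:69098756-69098815, plus strand, E-box 166 bases before the first start; the window of the second start holds none): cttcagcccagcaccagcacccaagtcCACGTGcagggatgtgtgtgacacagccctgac
Cry1 (chr10:85185082-85185141, minus strand, E-box 60 bases before the start): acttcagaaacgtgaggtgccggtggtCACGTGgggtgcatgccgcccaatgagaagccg
Tef (chr15:81802519-81802578, plus strand, E-box 127 bases before the first start): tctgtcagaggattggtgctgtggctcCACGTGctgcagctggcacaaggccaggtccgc
Tef (chr15:81811249-81811308, plus strand, E-box 138 bases before the second start): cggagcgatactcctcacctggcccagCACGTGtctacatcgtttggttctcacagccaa
Per3 (chr4:151044789-151044897, minus strand, D-boxes 205 and 158 bases before the start): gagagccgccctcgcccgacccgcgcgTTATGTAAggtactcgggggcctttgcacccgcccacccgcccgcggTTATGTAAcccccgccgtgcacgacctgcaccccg
Hlf (chr11:90390892-90390953, minus strand, cyclic AMP response element 9 bases before the start): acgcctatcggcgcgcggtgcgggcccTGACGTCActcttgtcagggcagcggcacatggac

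All 10 genes had counts in every library. Total counts ran from 44290720 to 51125779, and the members' own counts from 52 (Ciart in restraint 2) to 12693 (Tef in control 3). The 6 muscle fibre markers (Acta1, Ckm, Myh4, Myh1, Tnnt3 and Mylpf) summed to between 127200 and 139800 CPM, counts scaled to a common library size, in all 6 libraries, with no gap between groups. Summed tendon markers were lower in restraint, 36.8 to 98.2 CPM against 107.5 to 149.7 CPM in control, with all 5 log2 fold changes negative and none past the test. Lymphocyte markers summed to 14.2 to 22.7 CPM in restraint and 42.4 to 93.2 CPM in control; 1 of the 2 tested, Ighm, was called lower, and Cd3e was at 0 in a library or more. All 6 macrophage markers had positive log2 fold changes, Cd68 was called higher, and their sums were 29.8 to 72.8 CPM in restraint and 24.6 to 31.7 CPM in control. The part of these cell types in the values below was not tested, and in bulk muscle fewer cells of a type and less RNA per cell cannot be told apart.

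Among the 10 genes, Ciart fell in restraint and the other 9 did not pass the test. The test was edgeR's quasi-likelihood test with Benjamini-Hochberg adjustment over all 15448 features, and a feature was called at an adjusted p under 0.05. It called 1.83% of all features, 1.26% higher and 0.563% lower in restraint. The median log2 fold change, restraint minus control, was -0.44 over the members and -0.0053 over all tested features, and 4 members had a positive and 6 a negative value. CPM of the 3 restraint libraries lay wholly below those of the 3 controls for 5 members (Per1, Dbp, Hlf, Ciart and Bhlhe41) and wholly above for 1 (Cry2). Of all tested features 21.8% had groups that did not overlap, 11.1% with restraint lower and 10.6% with restraint higher. Of the members, 6 had an unadjusted p under 0.05, as did 15.6% of all features.

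**Figure D1:**
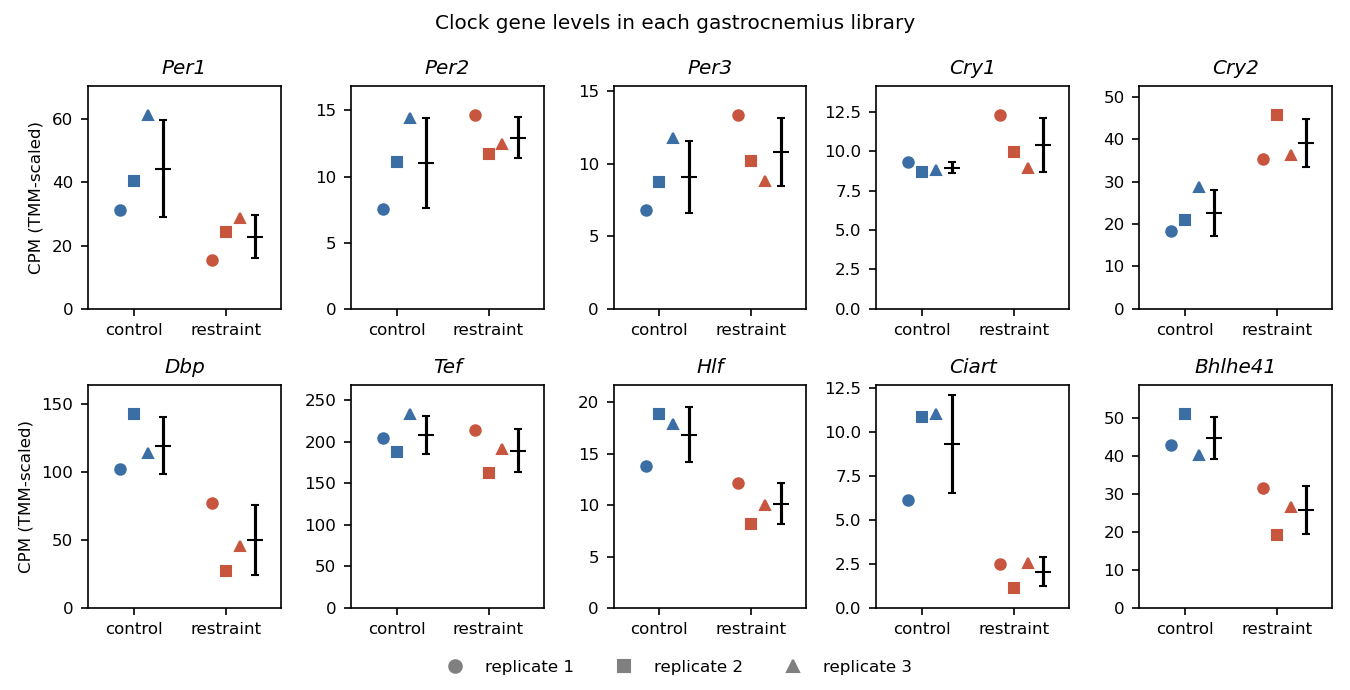
CPM of the 10 clock genes in each library (vertical axis from 0, TMM-scaled; points are libraries, shapes are replicate numbers, bars are mean ± SD, n = 3 per group). Ciart stands between 6.13 and 11.01 CPM in controls and between 1.11 and 2.57 CPM in restraint, while Per2, Per3, Cry1 and Tef overlap between the groups.

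Ciart, the repressor CHRONO, was measured at 6.13, 10.9 and 11.01 CPM in controls 1 to 3 and at 2.52, 1.11 and 2.57 CPM in restraint 1 to 3. The highest restraint library was thus below the lowest control, and restraint 2 was the lowest of all. Means were 9.34 ± 2.78 CPM in control and 2.07 ± 0.825 CPM in restraint (SD, n = 3 per group). The fitted log2 fold change was -2.18 ± 0.34 (SE), for which edgeR gave an adjusted p of 0.0222. With 1 library left out at a time the log2 fold change ran from -2.41 to -1.87, and the call was kept without restraint 1 (adjusted p = 0.0336) or restraint 2 (0.0377) and lost without control 1 (0.0689), control 2 (0.0704), control 3 (0.0595) or restraint 3 (0.0687). Ciart (gene 229599) lies on chromosome 3 from 95878500 to 95882257 on GRCm38.

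Bhlhe41, the repressor DEC2, was lower in each restraint library than in any control without passing the test. It stood at 42.7, 50.9 and 40.2 CPM in controls 1 to 3, and at 31.5, 19.2 and 26.5 CPM in restraint 1 to 3. The log2 fold change was -0.79 ± 0.18 with an edgeR adjusted p of 0.0722. Leaving out restraint 1, the restraint library nearest to the controls, gave -0.97 and an adjusted p of 0.0403, and leaving out restraint 2 gave -0.62 and 0.115. Its paralog Bhlhe40, or DEC1, stood at 77.1, 71.6 and 86.9 CPM in the controls, against 71.1, 42.0 and 38.6 CPM in restraint, a log2 fold change of -0.63 ± 0.22 (adjusted p = 0.202; 0.013 without restraint 1). The log2 ratio of Bhlhe41 to Bhlhe40 counts within a library averaged -0.82 ± 0.31 in control and -0.95 ± 0.35 in restraint (SD, n = 3 per group), and the groups overlapped.

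The 3 Period genes did not share a direction. Per1, a Period gene with known rapid induction by light, cyclic AMP and glucocorticoids, stood at 31.2, 40.6 and 61.4 CPM in controls 1 to 3 and at 15.5, 24.2 and 28.9 CPM in restraint 1 to 3. Every restraint library was below every control, though restraint 3 was close to control 1, and the controls themselves spread widely. The log2 fold change of -0.96 ± 0.28 had an edgeR adjusted p of 0.142, and it was -0.65 without control 3.

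Per2, a core repressor, stood at 7.58, 11.1 and 14.4 CPM in controls 1 to 3 and at 14.7, 11.7 and 12.5 CPM in restraint 1 to 3. Per3, which is dispensable for rhythm in mice under most conditions, stood at 6.80, 8.75 and 11.8 CPM in controls and at 13.4, 10.2 and 8.79 CPM in restraint. For both genes control 1 was the lowest and restraint 1 the highest library, and the groups overlapped. Their log2 fold changes were 0.23 ± 0.22 and 0.24 ± 0.22, with edgeR adjusted p of 0.682 and 0.673. Without control 1 they were 0.018 and 0.072, and without control 3 they were 0.47 and 0.48, so their size depends on which control is left out.

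The cryptochromes encode the strongest repressors of CLOCK and BMAL1. Cry2 stood at 18.4, 20.9 and 28.8 CPM in controls 1 to 3 and at 35.4, 45.8 and 36.4 CPM in restraint 1 to 3. All restraint libraries were above all controls. The log2 fold change was 0.79 ± 0.18, with an edgeR adjusted p of 0.0730; without control 3, the highest control, it was 0.997 and was called (adjusted p = 0.0338). Cry1 stood at 9.33, 8.67 and 8.83 CPM in controls and at 12.3, 9.96 and 8.96 CPM in restraint. The lowest restraint library lay within the controls, and the log2 fold change was 0.22 ± 0.14 (adjusted p = 0.529), or 0.081 without restraint 1.

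Among the PAR bZIP activators Dbp and Hlf were lower in every restraint library than in any control, and Tef was not. Dbp, a textbook output of the clock with a large daily swing, stood at 102, 142 and 114 CPM in controls 1 to 3 and at 77.5, 27.2 and 45.2 CPM in restraint 1 to 3. Restraint 1 was nearer to control 1 than to restraint 2. The log2 fold change was -1.26 ± 0.32 with an edgeR adjusted p of 0.104; without restraint 1 it was -1.72 and was called (adjusted p = 0.0154), and without restraint 2 it was -0.96 (0.143). Hlf, first known as a leukaemia fusion partner, stood at 13.8, 18.8 and 17.9 CPM in the controls, against 12.2, 8.16 and 10.04 CPM in restraint, a log2 fold change of -0.74 ± 0.18 (adjusted p = 0.0821). Tef, named for thyrotroph cells and widely expressed, stood at 204, 187 and 233 CPM in the controls, against 214, 162 and 191 CPM in restraint, a log2 fold change of -0.14 ± 0.13 (adjusted p = 0.688). On GRCm38 the gene Sphk2 shares 539 of the 2993 exon bases of Dbp on the opposite strand. Whether the authors counted by strand is not stated in the labels, and without strand the reads of that stretch cannot be assigned to 1 gene. Sphk2 averaged 621.7 counts per library, and Dbp had 1270 to 6186. Bhlhe41 likewise shares 1280 of 6720 exon bases with the opposite-strand Gm43909, which is not among the counted features, Cry2 shares 295 of 6320 with D930015M05Rik, which had no count, and Tef shares 193 of 7867 with Gm17597, which averaged 1.3 counts.

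**Figure D2:**
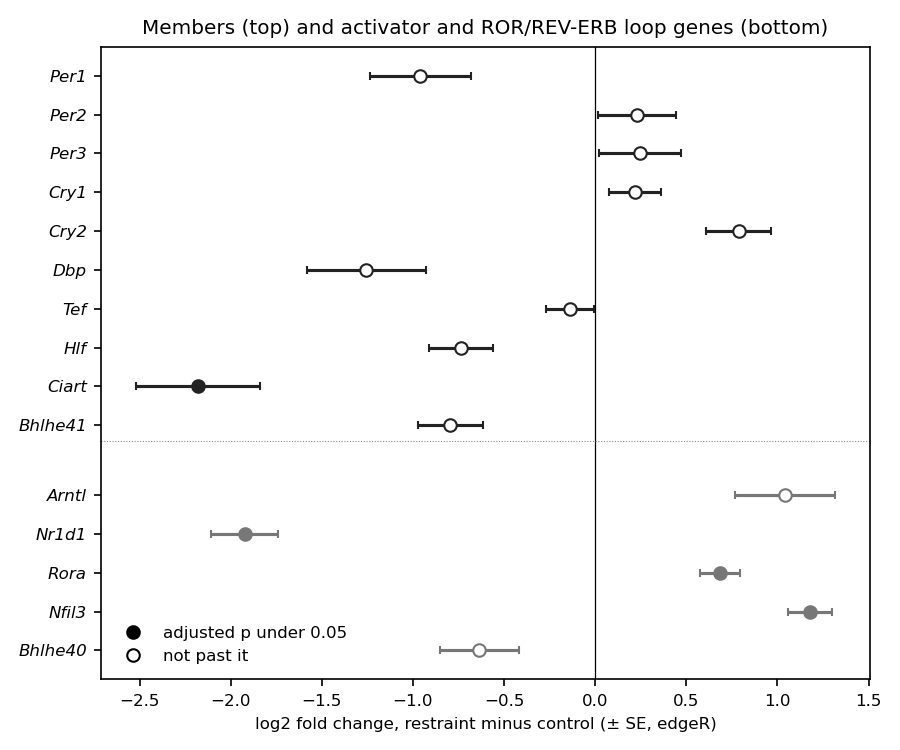
Fitted log2 fold change, restraint minus control (horizontal axis, ± SE, edgeR, n = 3 per group), of the 10 clock genes and of Arntl, Nr1d1, Rora, Nfil3 and Bhlhe40 from the activator and ROR/REV-ERB loop. Filled points have an adjusted p under 0.05; among the 10 clock genes that is Ciart, at -2.18.

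Levels can be compared between genes on the deposited TPM scale, which is per transcript length. In controls Dbp was highest at 122 ± 14.2 TPM, followed by Tef at 90.1 ± 19.9 TPM (SD, n = 3), and the ranges of these overlapped. Per1 (16.5 ± 7.64 TPM), Bhlhe41 (12.4 ± 0.359), Ciart (10.8 ± 3.70) and Cry2 (9.998 ± 3.62) followed with overlapping ranges, all below Tef. Hlf (5.15 ± 0.976), Cry1 (5.15 ± 0.721), Per2 (3.30 ± 1.34) and Per3 (2.66 ± 1.005) formed the lowest group, each overlapping its neighbour. In restraint Tef was highest at 83.3 ± 8.37 TPM, and Dbp at 52.4 ± 25.3 TPM overlapped it at the top of its range. Cry2 at 17.4 ± 3.71 TPM came next with a range apart from those above and below it. Per1 (8.45 ± 2.59 TPM), Bhlhe41 (8.04 ± 2.22) and Cry1 (6.09 ± 1.04) followed with overlapping ranges. Per2 (3.88 ± 0.390 TPM), Per3 (3.43 ± 0.493), Hlf (3.14 ± 0.508) and Ciart (2.35 ± 0.854) were lowest. Ciart thus stood at rank 5 of 10 in control and rank 10 in restraint, and Cry2 at rank 6 and rank 3.

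The shares of Per1 in the Period sum and of Dbp in the PAR bZIP sum did not overlap between control and restraint, while the shares of the cryptochromes did. Of the summed TPM of the 3 Period genes, Per1 made up 72.9%, 72.0% and 74.6% in the controls, against 39.8%, 57.9% and 60.7% in the restraint libraries. The control shares lay within a narrow range although the sum itself ran from 15.6 to 33.9 TPM, because all 3 genes were high in control 3. Dbp made up 53.2%, 62.7% and 53.1% of the summed PAR bZIP TPM in controls and 45.5%, 28.3% and 35.2% in restraint. That sum was 217 ± 28.0 TPM in control and 139 ± 34.2 TPM in restraint (SD, n = 3 per group), with no overlap of libraries. The Hlf share was 2.14% to 2.48% in control and 2.097% to 2.48% in restraint. The 2 cryptochromes summed to 15.1 ± 4.15 TPM in control and 23.5 ± 3.99 TPM in restraint, where restraint 3 at 20.2 TPM was just above control 3 at 19.9 TPM, and the Cry2 share of 59.6% to 71.2% in control overlapped that of 68.5% to 77.6% in restraint. These sums and shares were set up after the data had been seen and were not tested.

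**Figure D3:**
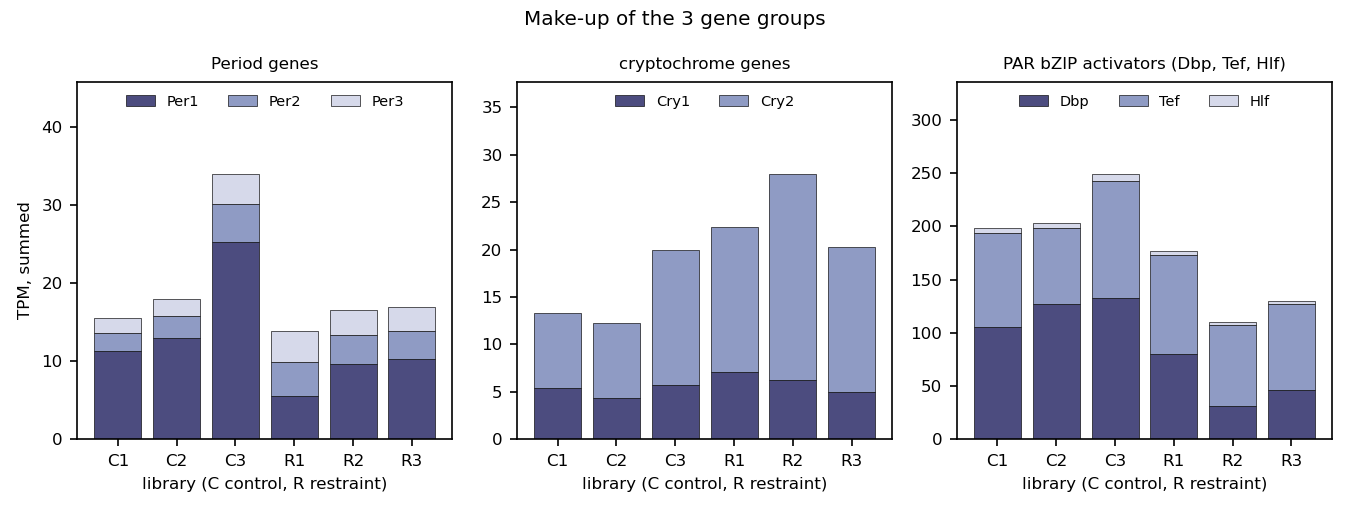
Summed TPM (vertical axis, from 0) of the Period genes, the cryptochromes and the PAR bZIP activators in each library (C1 to C3 control, R1 to R3 restraint), stacked by gene. Per1 makes up 72.0% to 74.6% of the Period sum in controls and 39.8% to 60.7% in restraint, and Dbp makes up a smaller share of the PAR bZIP sum in each restraint library than in any control.

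Ratios between genes within a library do not depend on library size. Of 10 ratios compared, 5 had groups that did not overlap. The exact two-sided permutation test on 3 against 3 libraries cannot give a p below 0.1, which all 5 reached, and Benjamini-Hochberg adjustment over the 10 ratios gave 0.2; none can pass at this size. The log2 ratio of Per1 to Per2 counts had control values of 2.04, 1.87 and 2.09, and restraint values of 0.082, 1.04 and 1.21. The log2 ratio of Dbp to Nfil3, the D-box activator to its opposing repressor, was 2.91, 3.29 and 2.93 in controls and 1.49, -0.37 and 0.38 in restraint, a mean difference of -2.54. Per length, Dbp stood at 80.4, 31.1 and 45.8 TPM in restraint 1 to 3, where Nfil3 stood at 20.5, 29.1 and 27.8 TPM, so that their levels were close in restraint 2 and further apart in the other libraries. The log2 ratio of Ciart to Per2 differed by a mean of -2.49, from -0.24 ± 0.19 in control to -2.73 ± 0.58 in restraint (SD, n = 3 per group). Dbp to Tef differed by -1.23 and Tef to Hlf by 0.60, both with groups apart. The ratio of Per3 to Per2 averaged -0.26 ± 0.098 in control and -0.28 ± 0.20 in restraint, a difference of -0.013. For Cry1 to Cry2 and Dbp to Hlf the groups overlapped, with mean differences of -0.60 and -0.63 (exact permutation p = 0.2 for each).

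**Figure D4:**
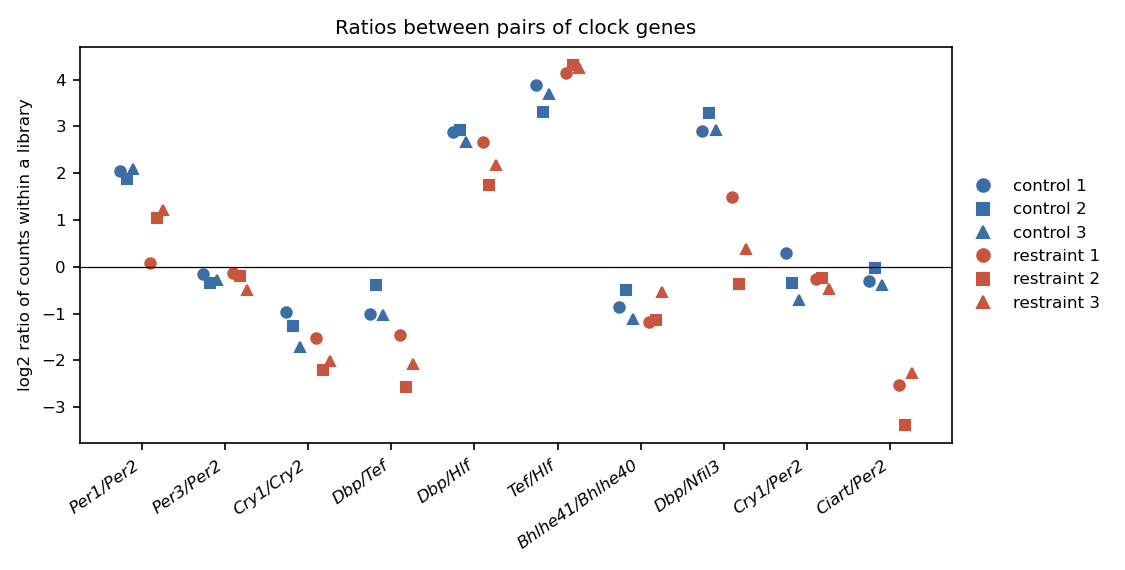
log2 ratio of counts (with 0.5 added to each) for 10 pairs of clock genes in each library (vertical axis); blue points are controls, red points restraint, shapes are replicate numbers. Control and restraint points are apart for Per1/Per2, Dbp/Tef, Tef/Hlf, Dbp/Nfil3 and Ciart/Per2.

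Libraries of a group differed from each other in these genes. Within controls, control 1 was the lowest library for 7 of the 10 members and control 3 the highest for 6, among them all 3 Period genes, Cry2 and Ciart. Within restraint, restraint 1 was the highest for 7 and restraint 2 the lowest for 6, among them Dbp, Tef, Hlf, Ciart and Bhlhe41. Restraint 1 was the lowest restraint library for Per1 and Cry2. The median coefficient of variation over the members was 20.8% in control and 20.7% in restraint, against 10.6% and 9.05% over the 7788 tested features within the members' range of mean CPM. Per1 varied by 34.8% over controls, more than 98.2% of those features, and Cry1 by 3.85%. In restraint Dbp varied by 50.96% and Ciart by 39.9%.

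**Figure D5:**
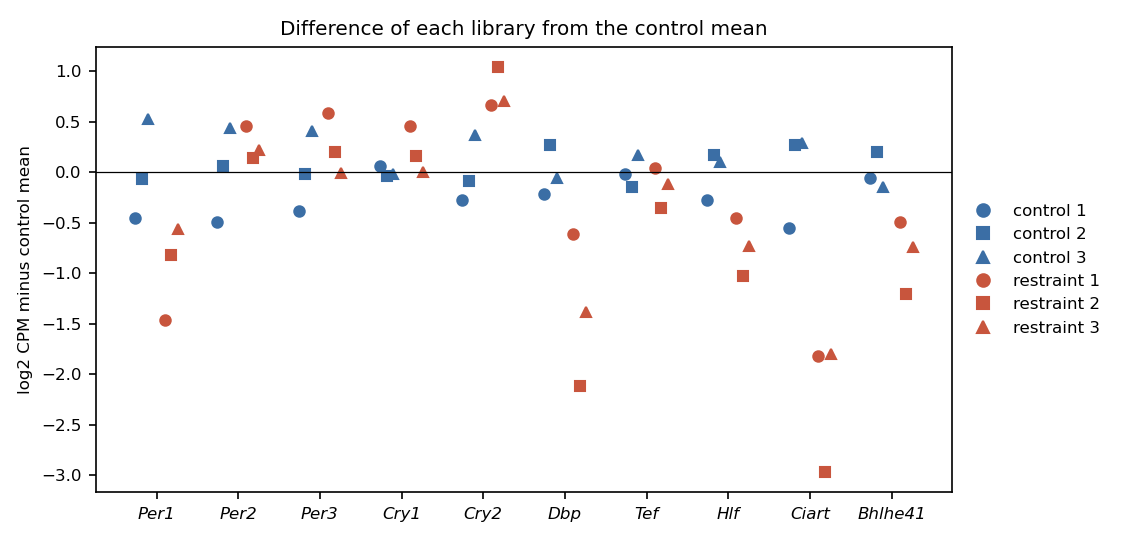
log2 CPM of each clock gene in each library minus the mean of the 3 controls (vertical axis; blue controls, red restraint, shapes are replicate numbers). For Dbp the 3 restraint libraries lie at -0.61, -2.12 and -1.39 relative to the control mean, and for Per2 and Per3 control and restraint points are mixed.

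The partner genes of the clock were described with lists drawn up with earlier results of these data known. Of 10 tested activator and ROR/REV-ERB loop genes, 3 rose and 1 fell, against 1.83% of all features called. Nr1d1, the repressor REV-ERBα that competes with the ROR receptors, stood at 106, 98.9 and 110.2 CPM in controls 1 to 3 and 36.7, 23.6 and 22.8 CPM in restraint 1 to 3, and was called whichever of the 6 libraries was left out. Nfil3, the D-box repressor, stood at 13.6, 14.5 and 14.9 CPM in the controls, against 27.6, 35.1 and 34.8 CPM in restraint (log2 fold change 1.18 ± 0.12, edgeR adjusted p = 0.00529), and missed the threshold without control 1 (0.0676). The activating receptor Rora rose by 0.69 ± 0.11 on the log2 scale, with an edgeR adjusted p of 0.0236. It was called in 2 of the 6 leave-one-out fits (without control 3 or restraint 1), with adjusted p from 0.0357 to 0.144 over the 6. Arntl, encoding BMAL1, stood at 7.43, 4.87 and 6.06 CPM in the controls, against 8.79, 18.2 and 10.9 CPM in restraint, where restraint 2 was highest; its log2 fold change of 1.04 ± 0.27 did not pass (adjusted p = 0.107).

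Of all features edgeR called 1.83%, and at that share short lists of genes around the loop can hold no call. None of 14 tested kinases and turnover factors of PER and CRY proteins was called by edgeR. An unadjusted p under 0.05 was found for 4 of them and for 15.6% of all features. The median log2 fold change of the list was 0.12. DESeq2 called none of these 14 genes either. The smallest p belonged to Fbxw11, a substrate receptor for PER degradation (log2 fold change 0.36 ± 0.12, adjusted p = 0.188), and Ddb1, an adaptor of ubiquitin ligases (0.36 ± 0.13, adjusted p = 0.215). None of 11 output and target genes was called by edgeR, 2 had an unadjusted p under 0.05, and DESeq2 called 1, Ucp3. Ucp3, an uncoupling protein of muscle mitochondria, stood at 139, 142 and 243 CPM in the controls, against 285, 393 and 355 CPM in restraint (log2 fold change 0.98 ± 0.23, adjusted p = 0.0753), and was called without control 3. Pdk4, which inhibits pyruvate dehydrogenase, had 1.36 ± 0.36 (adjusted p = 0.114).

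Of 12 tested genes in the list of inputs to Period transcription, 2 were called higher, against 1.26% of all features. The list also holds targets and restraints of these inputs, and the activity of the inputs was not measured. Fkbp5, a glucocorticoid receptor target and co-chaperone, stood at 32.4, 46.1 and 58.5 CPM in controls and at 147, 182 and 138 CPM in restraint (edgeR adjusted p = 0.00993), and just missed the threshold without control 2 (0.0512). Sik1, a kinase induced by cyclic AMP that restrains CREB coactivators, stood at 5.17, 4.75 and 5.64 CPM in controls and at 11.9, 24.6 and 14.95 CPM in restraint (edgeR adjusted p = 0.0182). It was not called without control 1 (0.119), control 2 (0.0684) or restraint 3 (0.0536). Over the list the median log2 fold change was 0.20.

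The features whose log2 CPM followed Dbp and Ciart most closely over the 6 libraries were mostly of low level. By the root mean square difference of centred log2 CPM among 12878 features, the nearest to Dbp were Cyp7b1 (0.15), Dcaf12l1 (0.19), Crip3 (0.24), Kctd16 (0.25) and Pdzd7 (0.26). Cyp7b1, an oxysterol hydroxylase, stood at 0.327, 0.439 and 0.367 CPM in the controls, against 0.247, 0.0857 and 0.139 CPM in restraint, close to the counting floor of 3 counts (0.0587 to 0.0677 CPM). The nearest to Ciart were Akap5 (0.32), Cxcl9 (0.32), Ccdc125 (0.40), Kctd16 (0.46) and Angpt4 (0.46). Akap5, an anchoring protein for protein kinase A, stood at 0.715, 0.780 and 1.01 CPM in controls. In restraint it stood at 0.225, 0.129 and 0.185 CPM, also not far above that floor. Its edgeR adjusted p was 0.0251, but Akap5 was picked by its likeness to Ciart, so this p is no separate evidence. With 6 libraries in 2 groups, features can share such a profile without being related, how many do was not counted, and the measure is a description only.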

How the data were processed

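PolyA RNA of 6 gastrocnemius libraries was measured. The submitters' processing notes name, without roles, the tools StringTie 2.1.3b, HISAT2 2.1.0, Trimmomatic and bcl2fastq 2.20.0, and the mouse build mm10 (GRCm38). The table deposited by the authors holds whole read counts, FPKM and TPM per feature, per the file headers. The 825 unannotated loci with identifiers (4.84% to 7.14% of counts) were kept as features. Groups came from the treatment label. The test was edgeR 4.0.16 under R 4.3.3 (filterByExpr, minimum count 10 and total 15; TMM; two-sided glmQLFTest; Benjamini-Hochberg at 0.05). Each SE is the absolute log2 fold change over the square root of F, and CPM are TMM-scaled. Ratios used counts + 0.5. The members and lists were chosen with earlier results of these data known. Named genes are the members, their ratio partners, list genes by smallest p (at most 4 called, or 2 with none called) and the 5 nearest profiles of Dbp and Ciart; Arntl, Ighm and Cd68 were named after their values were seen. A few list genes are not reported here by name. Alternatives were other size factors and filters, DESeq2 1.42.0, limma 3.58.1 (voom, and log2 of the authors' FPKM or TPM, pseudocounts 1 and 0.1, keeping features that reach 1 in 3 libraries), a replicate block, features left out and each library left out. Floors of 3 counts cover counting error only. No library pair of a group agreed within sampling noise.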

Additional observations from a re-analysis of the deposited data

How the results depend on the processing

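The 282 calls over all features were 739 by DESeq2, 153 and 155 by limma on log2(FPKM + 1) and log2(FPKM + 0.1), 122 (99 higher, 23 lower) and 112 (92 higher, 20 lower) with TPM in place of FPKM, against 195 higher and 87 lower in the main result. With 1 library left out they ran from 16 (without control 1) to 350 (without restraint 1). Members called higher numbered 1 by DESeq2 (Cry2) and 0 to 1 with a library left out. Members called lower numbered 4 by DESeq2 (Per1, Hlf, Ciart and Bhlhe41) and 0 to 3 with a library left out (3 without restraint 1: Dbp, Ciart and Bhlhe41). The 6 pathway calls numbered 9 by DESeq2, and with a library left out 2 (without control 1 or control 2) to 7 (without restraint 1).

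Whether the replicate numbers pair the libraries is not known. Deviations of same-numbered libraries from their group means correlated by 0.014, -0.20 and -0.21 across 15448 features. Those of differently numbered libraries ran from -0.0225 to 0.22. Such correlations cannot decide whether same-numbered libraries shared a batch. With a replicate block 60 features, 0 members and 3 pathway genes were called. The edgeR adjusted p in that fit was 0.0543 for Per1 (log2 fold change -0.95 ± 0.13) and 0.0942 for Ciart.

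No member's log2 fold change changed sign under any of the 20 alternatives. The log2 ratio of Per3 to Per2, restraint minus control, reversed to 0.11 with FPKM and ran from -0.085 to 0.0995 with a library left out. Bhlhe41 to Bhlhe40 reversed to 0.0063 with FPKM and ran from -0.33 to 0.032, and Cry1 to Per2 ran from -0.29 to 0.21. The causes were not tested. Ranks by mean TPM in control held for 6 of 10 members without control 2 or control 3. Ciart had 52 to 112 counts in the restraint libraries and 300 to 600 in the controls. Its coefficient of variation was 39.9% in restraint and 29.8% in control. The part of counting error in this spread was not tested.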
